A study of Rattus norvegicus with 13 samples.

Results

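Skin-derived precursors (SKPs) from 3 regions of the rat's skin were compared, as a class, with mesenchymal stromal cells (MSCs). The 9 SKP arrays (3 isolates each of dorsal, facial and ventral skin, each region given equal weight) and the 4 MSC arrays are all 13 of the series, and 14506 genes were measured on each. All cells came from adult Sprague Dawley rats and had been passaged 2 times, with no gene altered and no treatment given in the labels. Each isolate is labelled as independent and was hybridised to an Affymetrix Rat Gene 1.0 ST array, and the tissue of origin of the MSCs and the culture media are not stated in the labels. Expression levels are log2 values, so a difference of 1 is a 2-fold change.

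SKPs are cells of the dermis that grow in culture as floating spheres under growth factors and have features of neural crest precursors. MSCs, the fibroblast-like cells that give rise to bone, fat and cartilage cells in culture, spread on plastic. Lysosomes break down material with acid hydrolases in a lumen that the V-ATPase proton pump keeps acidic. YAP and its partner TEAD are a transcription factor pair that responds to cell spreading and tension, and ATF4 is the factor through which cells raise amino acid synthesis when amino acids run short.

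Marker counts stand beside the 13.1% of all genes that were higher and the 12.2% that were lower in SKPs. Of 11 SKP markers, 5 were higher in SKPs than in MSCs (Crabp1, Twist1, Sox2, Pax3 and Ngfr) and 1 was lower (Snai2). The other 5 did not pass the test, among them nestin (Nes) at a log2 difference of -0.01. The mean of these markers was 7.74 on dorsal array 3, below every MSC array (7.98 to 8.31), while the other SKP arrays lay above these, up to 9.39. Their median difference was 0.06 for the dorsal arrays and 1.54 for the ventral arrays. Of 10 MSC markers, 2 were higher and 2 lower in SKPs, so these markers did not set the classes apart: Thy1, Cd44, Eng and Pdgfrb were well above background in both. Keratinocyte markers (7) had list means of 3.47 to 3.67 on the SKP arrays and 3.49 to 3.59 on the MSC arrays, and Epcam and Krt1 were below background in every group. Of 9 Schwann cell and melanocyte markers, 1 (Mlana) was higher in SKPs, a share (11.1%) close to that of all genes. Tyr and Cdh19 were below background in every group. Endothelial markers (11) were 5 higher and 1 lower, and their mean was 4.83 to 5.40 on the ventral arrays against 4.01 to 4.52 in MSCs. The count of 5 was 3 without MSC array 2, ventral array 1 or ventral array 3, and 2 without MSC array 4. It was 1 against MSC arrays 1 and 2 alone or MSC arrays 3 and 4 alone, and 0 with SKPs fitted as 1 group of 9.

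Macrophage and leukocyte markers differed among the SKP arrays. Their mean over 21 genes was 6.97, 4.97 and 4.15 on dorsal arrays 1 to 3, 7.43, 6.12 and 9.85 on the facial arrays, 5.23 to 5.58 on the ventral arrays and 4.13 to 4.60 on the MSC arrays. Of the 21, 10 (47.6%) were higher in SKPs and 0 lower (13 and 0 at an unadjusted p under 0.05). The count of 10 was 4 without MSC array 3 or 4, 6 without ventral array 2 or 3, and 16 without facial array 2. When the same mean entered the fit as a covariate 1 was higher. That fit adjusts the markers for their own mean, so it cannot show whether they differ. In RNA from whole cultures, fewer cells of a type and less RNA per cell cannot be told apart. Facial array 3 had the highest leukocyte signal. Dorsal array 3, with a leukocyte signal as low as in MSCs, stood apart from dorsal arrays 1 and 2 in many genes below, and MSC arrays 3 and 4 differed from MSC arrays 1 and 2 in contractile genes. Where leaving out an array, using a single pair of MSC arrays or adding the leukocyte covariate moved a count of a list clearly, many of those counts stand beside it below.

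Between the classes, 1896 genes were higher in SKPs (13.1% of 14506) and 1776 were lower (12.2%), together 25.3%, at an adjusted p under 0.05 (limma with Benjamini-Hochberg adjustment over all genes). The median difference over all genes was -0.02. A gene was called shared by all 3 regions if it passed this test, differed from MSCs by at least 1 log2 unit in the same direction in each region, had no SKP array overlapping an MSC array, and lay above background on the higher side. Background was the level below which 95 percent of 215 olfactory, vomeronasal and taste receptor genes lay (3.82 for dorsal, 3.65 for facial and 3.62 for ventral SKPs, and 3.72 for MSCs). This rule gave 339 genes higher in SKPs (2.34% of all genes) and 369 lower (2.54%). The median difference was 2.19 among the former and -1.93 among the latter, which describes what the rule selected. The regions themselves differed in 66 of the 339 genes (19.5%) and 26 of the 369 (7.05%), against 8.08% of all genes, by an F test over the 3 regions. The rule did not use that test but selected on the same region means, so these shares are not independent of the selection. Most of these shared genes (291 and 315) belonged to none of the 37 function lists described further on.

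**Figure D1:**
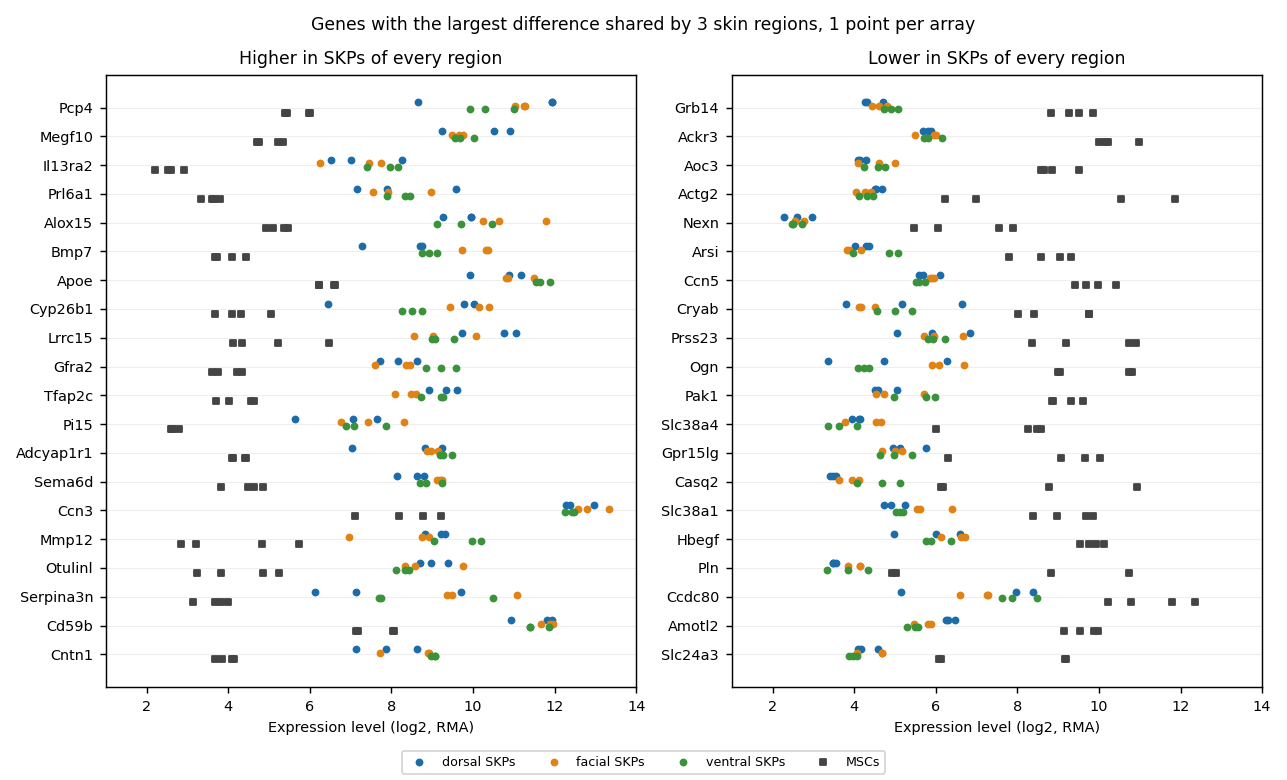
Expression level (log2) of the 20 genes in each direction with the largest difference shared by all 3 regions, with 1 point per array (circles for dorsal, facial and ventral SKPs, squares for MSCs). In every gene the 9 circles lie on the same side of the 4 squares, which the rule required, and for Actg2, Casq2 and Pln the MSC arrays themselves spread over more than 4 log2 units.

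Several secreted factors and matrix enzymes were among the 20 genes with the largest shared rise. The matricellular protein Ccn3 had levels of 12.26, 12.48 and 13.32 (lowest, median and highest SKP array) and 7.11, 8.18, 8.77 and 9.21 on the MSC arrays. It was 19.6-fold higher (log2 difference 4.29 ± 0.31 SE, adjusted p = 1.93e-06), and it is one of the 10 MSC markers counted above. Bmp7, a bone morphogenetic protein of the epithelial-mesenchymal dialogue, ran from 7.28 over 8.92 to 10.36 in SKPs and stood at 3.67, 4.08, 4.42 and 3.73 in MSCs (log2 difference 5.13 ± 0.26, adjusted p = 1.37e-07). It was up by 6.16 in facial, 4.96 in ventral and 4.26 in dorsal SKPs, and the regions differed (adjusted p = 0.0169).

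The lipid carrier apolipoprotein E (Apoe) had levels of 9.92, 11.17 and 11.89 in SKPs against 6.60, 6.22, 6.62 and 6.22 in MSCs, 26.3-fold higher (4.71 ± 0.21, adjusted p = 5.73e-08). Macrophage elastase (Mmp12), which breaks down elastin, ran from 6.95 over 9.04 to 10.19 in SKPs and stood at 5.73, 4.83, 2.85 and 3.20 in MSCs. Mmp12 was at 8.83 on dorsal array 3, where the leukocyte marker mean was 4.15. The semaphorin Sema6d, a membrane-bound guidance cue, rose by 4.43 ± 0.18 (8.13 to 9.25 in SKPs and 3.81 to 4.85 in MSCs). Secreted protease inhibitors were represented by Serpina3n, at 6.13, 9.36 and 11.06 in SKPs, and by Pi15 at 5.63, 7.08 and 8.31. Both were below background in MSCs, so the sizes of their differences (5.09 and 4.53) are not resolved. The prolactin family hormone gene Prl6a1 (7.14 to 9.58 in SKPs) was below background in MSCs too.

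Receptors and adhesion molecules formed another part of the shared rise. Megf10, an engulfment receptor of astrocytes and muscle satellite cells, had levels of 9.25, 9.68 and 10.91 in SKPs and 5.22, 4.70, 4.76 and 5.33 in MSCs (29.1-fold, log2 difference 4.86 ± 0.25, adjusted p = 1.72e-07). Gfra2, the co-receptor for the neurotrophic factor neurturin, ran from 7.59 over 8.45 to 9.58 against 3.75, 3.61, 4.32 and 4.21 in MSCs (4.53 ± 0.22). Adcyap1r1, the receptor of the neuropeptide PACAP, was at 7.04, 9.13 and 9.48 in SKPs and at 4.09 to 4.43 in MSCs (4.63 ± 0.30). In that gene the lowest SKP value was dorsal array 3, still 2.61 above the highest MSC array. Contactin 1 (Cntn1), an adhesion molecule of axons and glia, rose by 4.54 ± 0.27, from 3.67 to 4.14 in MSCs to 7.13 to 9.08 in SKPs. The decoy receptor of interleukin 13, Il13ra2, was at 6.25 to 8.26 in SKPs and below background in MSCs. Lrrc15, a membrane protein of activated fibroblasts, was at 8.56, 9.52 and 11.05 in SKPs and 6.48, 4.32, 5.22 and 4.11 in MSCs (4.61 ± 0.43, adjusted p = 1.28e-05). Cd59b, which blocks the membrane attack complex of complement, was at 10.94, 11.81 and 11.95 in SKPs and at 7.12, 7.19, 8.07 and 8.03 in MSCs, 16.5-fold higher (4.05 ± 0.23).

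Enzymes and intracellular proteins made up the rest. The retinoic acid degrading enzyme Cyp26b1 ran from 6.46 over 9.44 to 10.39 in SKPs against 4.32, 5.04, 4.08 and 3.67 in MSCs (4.80 ± 0.55, adjusted p = 6.25e-05), and its lowest value was dorsal array 3. Alox15, a lipoxygenase that oxidises arachidonic and linoleic acid, had levels of 9.11, 9.95 and 11.78 against 5.38, 4.91, 5.48 and 5.09 (30.0-fold, 4.91 ± 0.29, adjusted p = 5.12e-07). Tfap2c, a transcription factor of neural crest and ectoderm, was at 8.08, 8.92 and 9.60 in SKPs and 4.62, 3.71, 4.01 and 4.56 in MSCs, with narrow ranges in all groups (4.69 ± 0.20, adjusted p = 2.96e-08). Pcp4, a small calmodulin-binding protein first known from Purkinje cells, led the list with a rise of at least 4.70 in each region. Its levels were 11.93, 11.93 and 8.64 on the dorsal, 11.25, 11.28 and 11.03 on the facial and 9.92, 10.99 and 10.29 on the ventral arrays against 5.97, 5.40, 5.99 and 5.43 in MSCs (34.5-fold, adjusted p = 2.19e-05). Otulinl rose by 4.44 ± 0.36.

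On the lower side, the largest shared differences included signalling proteins that curb or relay growth factor and chemokine signals. Grb14, an adaptor that inhibits insulin receptor signalling, had levels of 4.27, 4.70 and 5.08 in SKPs and 8.82, 9.27, 9.51 and 9.86 in MSCs, 26.3-fold lower (log2 difference -4.72 ± 0.17, adjusted p = 1.1e-08). The scavenger receptor of the chemokine Cxcl12, Ackr3, was at 5.50, 5.82 and 6.14 in SKPs against 10.16, 10.23, 10.98 and 10 in MSCs (-4.50 ± 0.17, adjusted p = 1.67e-08). For Grb14, Ackr3 and the amine oxidase Aoc3 (-4.48 ± 0.19) the SKP arrays lay at least 3.59 below the lowest MSC array. The EGF receptor ligand Hbegf fell by 3.72 (4.98, 6.13 and 6.71 against 9.52, 9.75, 9.94 and 10.13), and Pak1, a kinase that acts on the cytoskeleton below Rac and Cdc42, by 4.07. Ccn5, a matricellular protein of smooth muscle, stood at 5.52 to 6.09 in SKPs and at 9.41, 9.69, 10.42 and 9.97 in MSCs (-4.10 ± 0.16), opposite in direction to its family member Ccn3.

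Matrix proteins and 2 amino acid transporters were also lower. The small leucine-rich proteoglycan osteoglycin (Ogn) ran from 3.35 over 4.73 to 6.69 in SKPs against 8.99, 9.04, 10.81 and 10.75 in MSCs (-4.82 ± 0.49, adjusted p = 2.96e-05). Ccdc80, a secreted matrix protein, was at 5.15, 7.62 and 8.49 against 10.79, 10.23, 12.35 and 11.80, with dorsal array 3 lowest. The sodium-coupled neutral amino acid transporters Slc38a1 and Slc38a4 fell by 3.92 ± 0.25 and 3.81 ± 0.41. Slc38a1 was at 4.72, 5.20 and 6.41 in SKPs and 9.86, 9.67, 8.39 and 8.97 in MSCs. Slc38a4 was at 3.35, 4.06 and 4.65 in SKPs and 8.27, 8.47, 6.0 and 8.59 in MSCs, where array 3 lay apart. The same MSC array was lowest for Gpr15lg, the ligand of the receptor Gpr15 (10.03, 9.65, 6.30 and 9.08, against 4.64 to 5.76 in SKPs). The sulfatase Arsi and the serine protease Prss23 fell by 4.41 ± 0.26 and 3.79 ± 0.46.

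Muscle-type genes in this group followed the pairs of MSC arrays. Gamma smooth muscle actin (Actg2) was at 4.04 to 4.67 in SKPs and at 6.22, 7.0, 11.88 and 10.54 on MSC arrays 1 to 4. Calsequestrin 2 (Casq2), the calcium store protein of heart muscle, was at 6.14, 6.17, 10.94 and 8.77 in MSCs, and phospholamban (Pln), which restrains the calcium pump of the sarcoplasmic reticulum, at 5.02, 4.92, 10.73 and 8.82. Slc24a3, a sodium and calcium exchanger, was at 6.09, 6.12, 9.20 and 9.16. All were lower in every SKP array than in every MSC array, and MSC arrays 3 and 4 lay above MSC arrays 1 and 2. Pln did not pass with the leukocyte mean as a covariate (adjusted p = 0.1036). The actin filament protein nexilin (Nexn, 5.46 to 7.90 in MSCs) had a mean below background in SKPs of every region, and Casq2 and Pln in dorsal SKPs.

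Function lists were read by how many of their measured members passed the test in each direction, beside the 13.1% higher and 12.2% lower of all genes. The 37 lists hold 1137 genes, of which 983 were measured. List counts carry no test of their own.

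**Figure D2:**
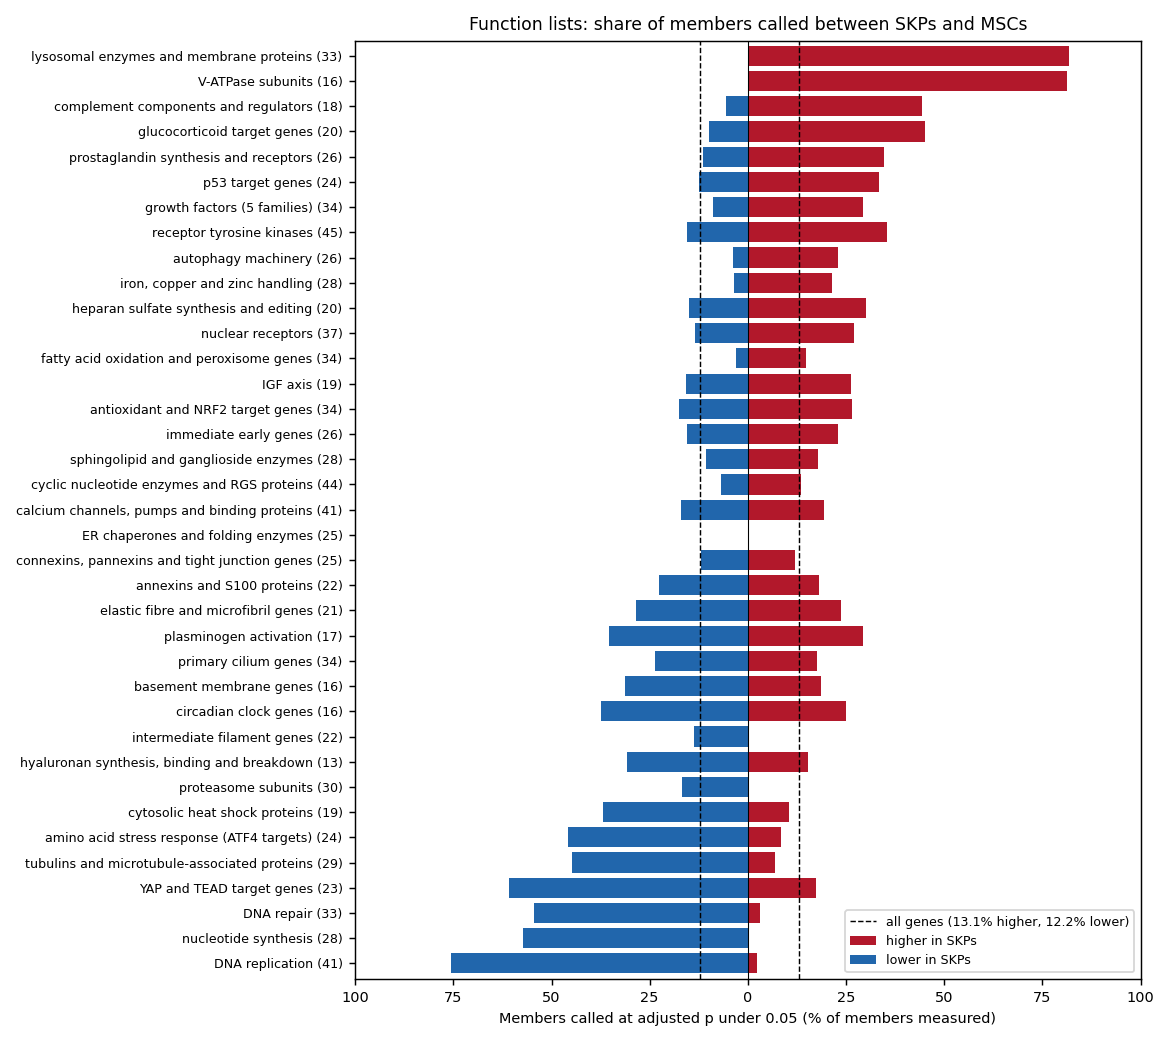
Share of the measured members of each function list called higher (right, red) or lower (left, blue) in SKPs than in MSCs, in percent, with the number measured in parentheses. Dashed lines mark the shares among all genes (13.1% and 12.2%). Lists are ordered by the share higher minus the share lower. The lysosomal and V-ATPase lists have the largest shares higher. The lists of DNA replication (75.6%), YAP and TEAD targets (60.9%, TEAD factors included), nucleotide synthesis (57.1%) and DNA repair (54.5%) have the largest shares lower.

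Genes of the lysosome were mostly higher in SKPs, with list medians below 1 log2 unit in each region. Of 33 lysosomal enzymes and membrane proteins, 27 rose, 0 fell and 6 did not pass, with a median difference of 0.79. Of 16 V-ATPase subunits, 13 rose, 0 fell and 3 did not pass (median 0.63). By the rule for genes shared by all 3 regions, 5 lysosomal genes and 1 V-ATPase subunit were higher. At an unadjusted p under 0.05 in limma, 28 and 15 were higher and 0 lower in either list. The mean level of the lysosomal list was 9.75, 9.57 and 10.01 on the dorsal, 9.67, 9.66 and 10.25 on the facial and 9.79, 9.69 and 9.72 on the ventral arrays, against 8.90, 8.87, 9.04 and 8.73 in MSCs. Every SKP array lay above every MSC array, and the median difference was 0.81 in each region. Facial array 3 (10.25) and dorsal array 3 (10.01) were highest, and their leukocyte marker means were 9.85 and 4.15. With the leukocyte mean as a covariate the count was 22 higher and 0 lower, against 8.33% of all genes higher in that fit.

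Hydrolases and the proteins that support them moved together with the sterol carriers. Cathepsin D (Ctsd), the main aspartic protease of the lysosome, was at 12.26, 12.44 and 13.39 in SKPs and 11.18, 11.06, 11.24 and 10.77 in MSCs (log2 difference 1.5 ± 0.16, adjusted p = 3.96e-05). Npc2, which hands cholesterol to the export protein Npc1, was at 10.48, 10.92 and 11.30 against 9.09, 9.15, 9.55 and 9.24 (1.68 ± 0.11, adjusted p = 1.1e-06), and Npc1 rose by 0.79. The aminopeptidase cathepsin H (Ctsh) and arylsulfatase B (Arsb), which acts on dermatan sulfate, rose by 1.52 ± 0.14 and 1.60 ± 0.18. Smaller rises were seen for cathepsin B (Ctsb, 0.91), the sphingolipid activator Psap (0.98), acid alpha-glucosidase (Gaa, 0.83) and the membrane proteins Lamp1 (0.44) and Lamp2 (1.09). Cathepsin S (Ctss), a protease of antigen-presenting cells, had the largest difference of the list (2.92) but followed the leukocyte markers, at 3.78 on dorsal array 3 and 11.23 on facial array 3, and did not pass with that covariate (adjusted p = 0.2723). Cathepsin K (Ctsk), a collagenase of bone and fibroblasts, was at 10.73 to 11.28 in ventral SKPs and at 8.97 to 9.61 on the other SKP arrays, so its rise of 1.02 was mainly ventral.

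Among proton pump genes, Atp6v1b2 rose most (1.38 ± 0.23, adjusted p = 0.000929), at 9.61, 10.37 and 10.88 in SKPs against 8.97, 8.81, 8.70 and 8.54 in MSCs. The catalytic subunit Atp6v1a rose by 0.96 and the accessory protein Atp6ap2 by 0.85. Dorsal array 3 had the highest mean of the list, 10.05, against 9.28 to 9.53 on the other SKP arrays and 8.70 to 8.88 in MSCs. Without dorsal array 3, 15 of the 16 V-ATPase subunits rose and their median was 0.57. Against MSC arrays 1 and 2 alone, 6 V-ATPase subunits rose, and against MSC arrays 3 and 4 alone 17 lysosomal enzymes and membrane proteins did.

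**Figure D3:**
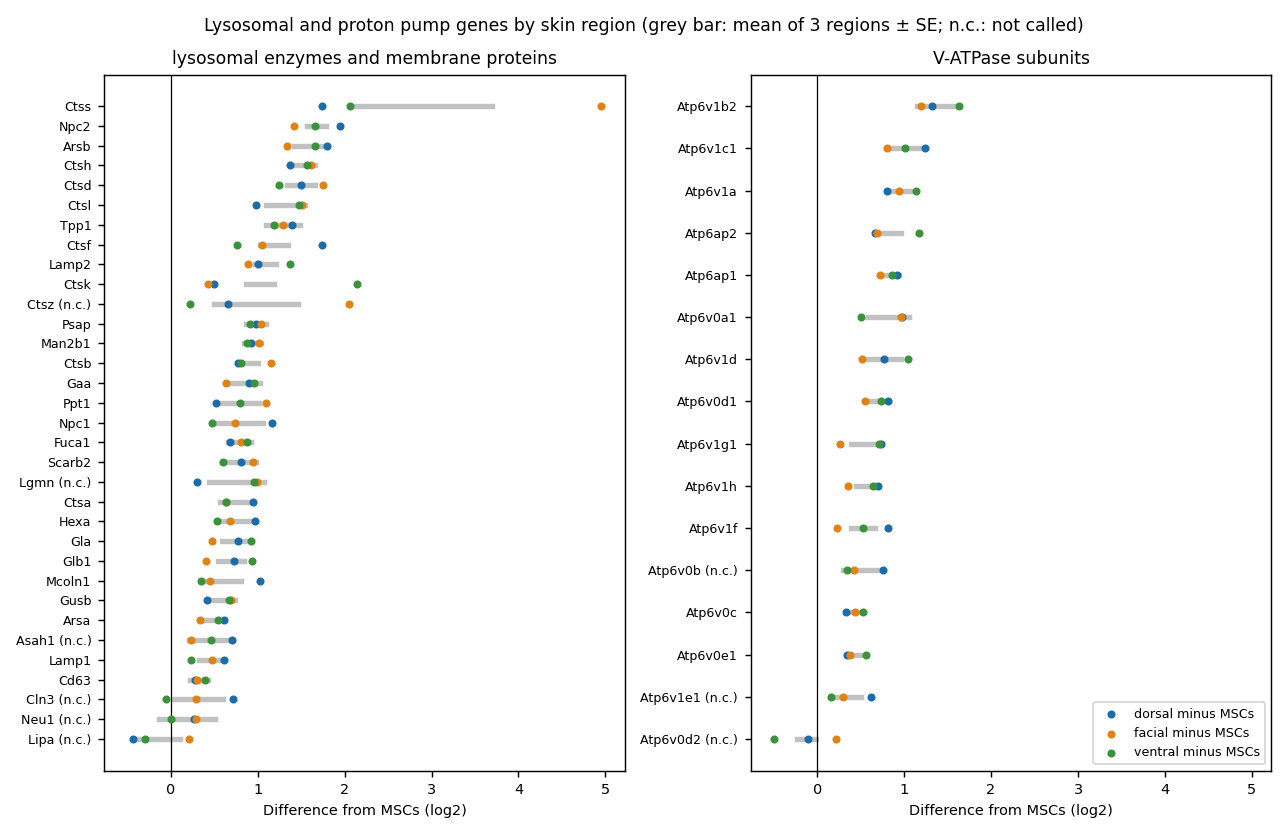
Difference from MSCs (log2) of each measured lysosomal gene (left) and V-ATPase subunit (right), as points for dorsal, facial and ventral SKPs and a grey bar for the mean of the regions ± SE. Nearly all points lie to the right of 0, Ctss and Ctsk spread widest over the regions, and members marked n.c. did not pass the test.

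The letters CACGTG, an E-box that the lysosomal regulator TFEB and related factors bind, were searched on both strands of promoters spanning 250 bases before to 50 bases after the gene start (RefSeq, assembly GRCr8). They stood in 30.8% of the 26 lysosomal promoters given, against 7.88% of 11970 promoters of measured genes. Other lists held them often too, with 23.8% of 21 promoters of ATF4 targets and 21.4% of 14 promoters of clock genes. Among the 238 promoters of genes higher in all regions the share was 5.88%. An exact match to the longer CLEAR element, which contains the E-box, stood in 0 of the 26 and in 0.368% of all. Stretches that differ from it in any letter were not counted, so the 0 does not show that similar elements are absent. Promoter stretches of Ctsd and Lamp1 are shown because the members of the lysosomal list rose together, with the E-box in capitals, 5′ to 3′ on the gene's strand. The Ctsd stretch is chr1:206968822-206968993 (minus strand) and that of Lamp1, chosen after its promoter was seen, chr16:83075081-83075261 (minus strand).
Ctsd: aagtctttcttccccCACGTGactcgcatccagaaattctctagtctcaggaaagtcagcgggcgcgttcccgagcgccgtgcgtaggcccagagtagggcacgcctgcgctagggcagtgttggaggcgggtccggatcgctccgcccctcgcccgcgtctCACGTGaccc
Lamp1: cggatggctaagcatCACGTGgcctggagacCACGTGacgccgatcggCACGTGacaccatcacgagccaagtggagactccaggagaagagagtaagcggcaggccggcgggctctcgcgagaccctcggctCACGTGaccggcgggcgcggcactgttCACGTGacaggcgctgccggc
Ctsd holds 2 E-boxes and Lamp1 holds 5. A match of letters is a description of the sequence and not evidence of binding.

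Of 26 genes of the autophagy machinery, 6 rose, 1 fell and 19 did not pass (median 0.18), with 10 higher and 2 lower at an unadjusted p under 0.05 in limma. The mean of that list was 8.01 to 8.41 on the SKP arrays and 7.80 to 7.92 on the MSC arrays, with no overlap. No difference between lists was tested. Among the autophagy genes, the risers included the cargo receptors Sqstm1 (0.60) and Nbr1 (0.90). Gabarapl1, which couples cargo to the autophagosome membrane, was at 7.76, 7.98 and 8.53 against 6.85, 6.93, 7.28 and 6.60 (1.10 ± 0.15, adjusted p = 0.000259). Against MSC arrays 1 and 2 alone 3 autophagy genes rose. Of 30 proteasome subunits, 0 rose and 5 fell (median -0.11), with Psmb7 lowest at -0.47, and at an unadjusted p under 0.05 these counts were 0 and 10. After another quantile normalisation 9 fell, with weights for each array 8, and with the leukocyte mean as a covariate or against MSC arrays 3 and 4 alone 1. None of 25 endoplasmic reticulum chaperones and folding enzymes passed in either direction by limma (median 0.02), and at an unadjusted p under 0.05, 3 were higher and 2 lower. It was the only function list with 0 calls. Dorsal array 3 stood apart here too, with a list mean of 11.22. The other SKP arrays had means of 9.79 to 10.02 and the MSC arrays 9.91 to 10.13. Without dorsal array 3, 2 chaperones and folding enzymes rose and 3 fell (median -0.12). The 0 calls therefore do not show that this list was unchanged.

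Genes of amino acid synthesis that ATF4 activates were lower in SKPs. Of 24 ATF4 targets, 11 fell and 2 rose (median -0.81). Psat1 and Phgdh, which make serine from a glycolytic intermediate, fell by 2.44 ± 0.23 and 1.74 ± 0.22. Psat1 was at 7.49, 8.45 and 8.92 in SKPs and 11.05, 11.06, 10.64 and 10.33 in MSCs (adjusted p = 1.43e-05). Pck2, the mitochondrial carboxykinase, fell by 1.60 ± 0.14 (6.30, 6.81 and 7.70 against 8.59, 8.47, 8.31 and 8.27), and asparagine synthetase (Asns) fell by 1.27. The exceptions were Ddit4, an inhibitor of the growth kinase complex mTORC1, which rose by 1.51 ± 0.20 (7.64, 8.51 and 8.90 against 7.45, 6.96, 6.92 and 6.44), and Cebpb (0.61).

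Dorsal array 3 went against the rest in this list. Its mean was 9.02, above the MSC arrays (8.22 to 8.42), while the other SKP arrays lay between 7.40 and 7.79. Without dorsal array 3, 16 ATF4 targets fell and 2 rose (median -0.93) of the list named amino acid stress response (ATF4 targets). With the leukocyte mean as a covariate 7 fell and the median was -0.24. Psat1 did not show this pattern in full, since dorsal array 3 (8.92) stayed below every MSC array.

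**Figure D4:**
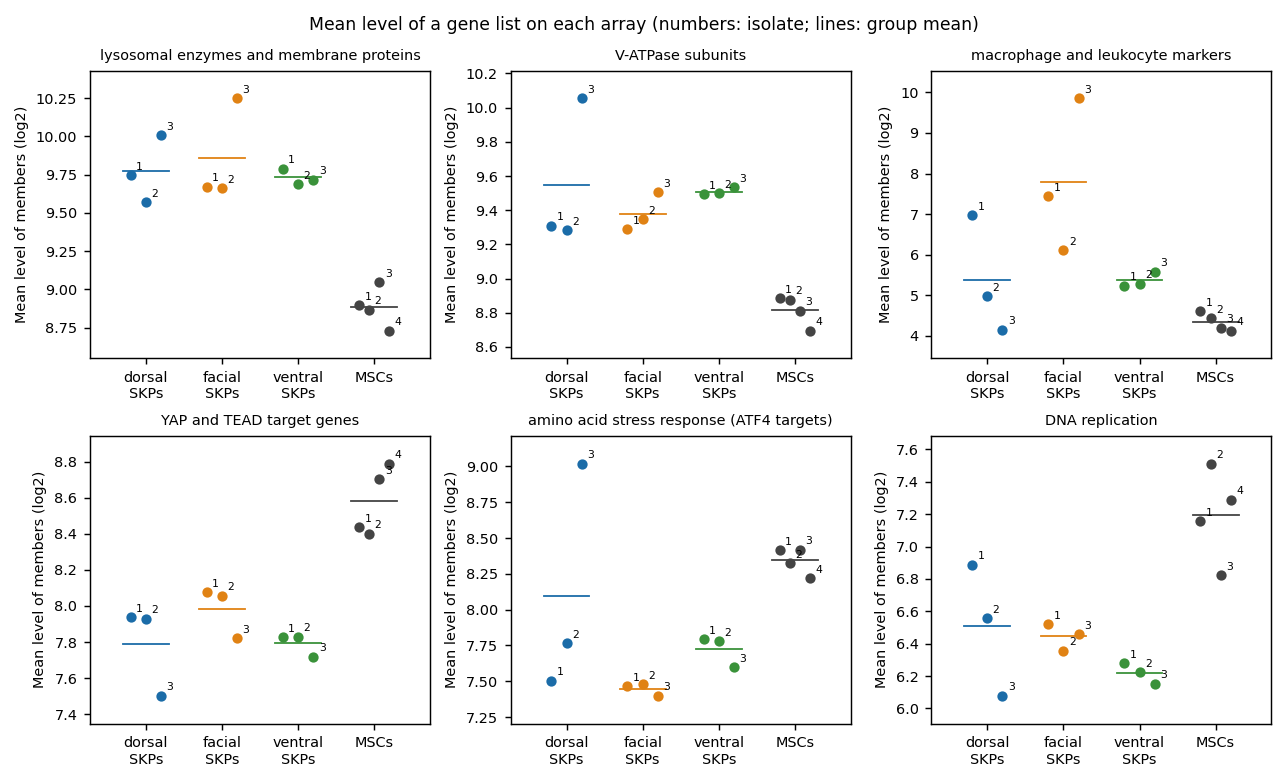
Mean level (log2) of the measured members of 6 gene lists on each array, with the isolate number beside each point and a line at the group mean. Lysosomal and V-ATPase means are higher on every SKP array than on any MSC array and YAP and TEAD target means lower, while dorsal array 3 lies above all others for ATF4 targets (9.02) and facial array 3 for macrophage and leukocyte markers (9.85).

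Of 19 cytosolic heat shock proteins, 7 fell, 2 rose and 10 did not pass (median -0.14). Alpha B-crystallin (Cryab), a chaperone of muscle and lens, was at 3.80, 4.57 and 6.65 in SKPs and 8.01, 8.41, 9.77 and 9.75 in MSCs (-4.16 ± 0.47, adjusted p = 5.84e-05). Hspb7, another muscle chaperone, was at 4.07, 6.48 and 7.03 against 9.72, 10.16, 7.90 and 7.38 (-2.90 ± 0.57, adjusted p = 0.0028), and did not pass against MSC arrays 3 and 4 alone (adjusted p = 0.0570). Dnajb4 fell by 1.62 ± 0.20. The general chaperone Hsp90aa1 fell by 0.30 and Hspa4 rose by 0.37.

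Genes of the YAP and TEAD target list were mostly lower in SKPs. The list also holds Wwtr1, Tead1, Tead2 and Tead3, which are a YAP relative and TEAD factors. Of its 23 measured genes, these factors included, 14 fell, 4 rose and 5 did not pass, with a median of -1.01. By the rule for genes shared by all 3 regions, 6 were lower and 2 higher. Amotl2, a junction protein that binds YAP, was at 5.29, 5.82 and 6.47 in SKPs and 9.14, 9.55, 9.98 and 9.87 in MSCs, 13.9-fold lower (-3.80 ± 0.15, adjusted p = 1.67e-08), and the regions differed (adjusted p = 0.0369). Ajuba, a scaffold protein that inhibits the Hippo kinases, was at 4.79, 5.58 and 5.83 against 8.01, 8.0, 9.04 and 9.20 (-3.08 ± 0.25). The matricellular protein Ccn2, a widely used YAP readout, was at 7.81, 8.59 and 9.81 against 11.28, 11.16, 12.07 and 12.09 (-2.88 ± 0.23, adjusted p = 3.71e-06). It fell by 3.66 in ventral, 2.78 in dorsal and 2.22 in facial SKPs, and the regions differed (adjusted p = 0.0351). Ccn1 and Ankrd1, further widely used targets, fell by 2.30 and 1.71.

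The 4 YAP and TEAD genes that rose were the insulin-like growth factor binding protein Igfbp3, Gadd45a, the YAP relative Wwtr1 (1.20) and Tead2 (0.74), while Tead1 (-1.20) and Tead3 (-1.38) fell. The mean of the list was 7.50 to 8.08 on the SKP arrays and 8.44, 8.40, 8.70 and 8.79 on the MSC arrays, with no overlap. With the leukocyte mean as a covariate, 10 genes of the list of YAP and TEAD target genes fell and 4 rose. The letters GGAATG, a core bound by TEAD factors, stood on either strand in 47.1% of the 17 promoters given for this list, against 12% of all. They are in capitals in these stretches of Ccn2 (chr1:22624686-22624795, minus strand) and Amotl2 (chr8:112182535-112182570, plus strand, where the letters lie on the opposite strand and read CATTCC), shown because these genes fell far within the list.
Ccn2: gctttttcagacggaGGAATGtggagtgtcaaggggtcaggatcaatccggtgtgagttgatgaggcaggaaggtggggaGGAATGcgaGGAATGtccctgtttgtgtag
Amotl2: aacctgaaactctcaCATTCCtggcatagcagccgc
Ccn2 holds 3 matches and Amotl2 holds 1.

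Binding proteins of insulin-like growth factors (IGFs) had some of the largest rises in the function lists. Igfbp3, the main IGF carrier of blood, was at 9.39, 10.09 and 11.42 in SKPs and 5.67, 5.55, 6.10 and 6.14 in MSCs, 19.3-fold higher (4.27 ± 0.28, adjusted p = 7.68e-07). Igfbp4 was at 9.94, 11 and 11.54 against 7.41, 7.22, 7.75 and 6.26 (3.73 ± 0.22), with a rise of 4.26 in ventral, 3.94 in facial and 3.00 in dorsal SKPs (adjusted p = 0.0430 for the regions). Igfbp5, which binds to the matrix, rose by 4.44, with overlap since dorsal array 3 (7.83) lay below MSC array 3 (7.91). The clearance receptor Igf2r rose by 1.10 and the signalling receptor Igf1r fell by 0.71. The imprinted RNA gene H19 was at 5.17, 5.54 and 6.32 in SKPs and 7.32, 7.28, 10.85 and 8.10 in MSCs (-2.77 ± 0.52, adjusted p = 0.0021). Over the IGF axis, 5 of 19 genes rose and 3 fell.

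Among growth factors of the PDGF, VEGF, EGF, HGF and neurotrophin families and the angiopoietins, 10 of 34 rose and 3 fell. Angiopoietin 1 (Angpt1), a ligand of the vessel receptor Tek, was at 5.70, 8.59 and 9.21 in SKPs and 4.87, 4.89, 4.82 and 3.33 in MSCs (3.48 ± 0.54, adjusted p = 0.000569), with dorsal array 3 lowest. Angptl2 rose by 1.73 ± 0.20 and the ErbB ligand neuregulin 1 (Nrg1), a factor for Schwann cell precursors, by 1.78 ± 0.29 (6.19, 7.25 and 8.66 against 5.25, 5.23, 5.88 and 5.99). Of 45 receptor tyrosine kinases, 16 rose and 7 fell, which became 9 and 0 with the leukocyte mean as a covariate, while 4 fell without MSC array 1 or MSC array 2 and 3 fell against MSC arrays 3 and 4 alone. Fgfr1 was at 10.88, 11.48 and 11.96 in SKPs and 9.86, 9.42, 8.13 and 8.66 in MSCs (2.44 ± 0.28, adjusted p = 6.55e-05). The ephrin receptor Ephb6 rose by 1.53 ± 0.30. Mertk, an engulfment receptor of macrophages and glia, was highest on facial array 3 (8.02, against 4.64 to 6.50 on the other SKP arrays and 3.61 to 4.27 in MSCs) and did not pass with that covariate (adjusted p = 0.0522). The EGF receptor gene Egfr fell by 1.93.

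Of 20 measured genes that glucocorticoids induce, 9 rose, 2 fell and 9 did not pass (median 0.43), and 7 rose with the leukocyte mean as a covariate in the list of glucocorticoid target genes. Fkbp5, a co-chaperone of the glucocorticoid receptor, was at 8.99, 9.43 and 9.75 in SKPs and 7.70, 7.86, 6.48 and 6.76 in MSCs (2.22 ± 0.23, adjusted p = 3.72e-05). The transcription factor Zbtb16 was at 5.84, 6.58 and 7.75 against 3.86, 4.69, 4.44 and 4.45 (2.35 ± 0.27), and the kinase Sgk1 at 9.91, 10.67 and 11.46 against 9.02, 9.07, 8.08 and 8.34 (2.07 ± 0.18). Sgk1 rose most in facial SKPs (2.66) and least in ventral SKPs (1.54), and the regions differed (adjusted p = 0.0369). Hsd11b1, which regenerates active glucocorticoid, rose by 1.99 and the receptor Nr3c1 by 0.58. The 2 that fell were the phosphatase Dusp1, by 1.66, and Pdk4, by 1.79, with a mean below background in ventral SKPs.

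Other transcriptional programmes were mixed. Of 24 p53 targets, 8 rose and 3 fell. The cell cycle inhibitor Cdkn2b was at 9.15, 9.07 and 9.12 on the dorsal, 9.23, 9.56 and 9.31 on the facial and 10.19, 10.35 and 10.24 on the ventral arrays, against 7.75, 7.60, 7.65 and 7.34 in MSCs (2.00 ± 0.09, adjusted p = 5.69e-08). Ventral SKPs stood about 1 log2 unit above the other regions (adjusted p = 0.000577 for the regions). Gadd45a, a growth arrest gene, rose by 2.21 ± 0.29 and the death receptor Fas fell by 1.32 ± 0.22. Of 37 nuclear receptors, 10 rose and 5 fell, and 3 fell without MSC array 2, while 5 rose with the leukocyte mean as a covariate. Against MSC arrays 1 and 2 alone 6 nuclear receptors rose, and against MSC arrays 3 and 4 alone 2 fell. The sterol sensor Nr1h3 rose by 1.43 ± 0.26, while the mineralocorticoid receptor Nr3c2 and the early response receptor Nr4a1 fell by 2.15 ± 0.35 and 2.18 ± 0.27.

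Of 16 clock genes, 4 rose and 6 fell, and 3 fell without MSC array 2 or against MSC arrays 3 and 4 alone. The clock repressor Bhlhe41 was at 7.57, 8.42 and 9.17 against 5.60, 5.47, 6.63 and 5.87 (2.41 ± 0.30). Npas2 rose by 1.86 ± 0.21, most in facial SKPs (2.67, adjusted p = 0.0207 for the regions). Its relative Bmal2 fell by 1.41 ± 0.30, a call lost against MSC arrays 3 and 4 alone (adjusted p = 0.1017) and with the leukocyte mean as a covariate (0.0678). Among 26 immediate early genes, 6 rose and 4 fell. The shear-responsive factor Klf2 was at 5.16, 5.79 and 7.02 in SKPs and 8.40, 8.47, 8.47 and 8.04 in MSCs (-2.48 ± 0.27), Fos fell by 1.63 ± 0.24 and Egr3 rose by 1.42 ± 0.21.

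Detoxifying enzymes changed member by member. Of 34 antioxidant and NRF2 target genes, 9 rose and 6 fell (median 0.14). The microsomal glutathione transferase Mgst1 was at 8.12, 8.40 and 9.18 in SKPs and 5.95, 6.49, 5.10 and 4.69 in MSCs (2.91 ± 0.30, adjusted p = 3.28e-05). The secreted peroxidase Gpx3 was at 10.26, 11.43 and 12.44 against 9.99, 9.24, 6.68 and 9.21 (2.70 ± 0.48). Gsta4, which clears lipid aldehydes, was at 4.00, 5.94 and 7.17 in SKPs and below background in MSCs. Gstm2 went the other way, at 6.90, 6.85, 7.56 and 7.23 in MSCs and 3.10 to 5.80 in SKPs. Its facial mean was below background and the regions differed (adjusted p = 0.0264). The classic NRF2 targets split, with Nqo1 higher (0.92) and Hmox1 (-1.70) and Gclm (-1.24) lower.

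Of 28 genes for iron, copper and zinc handling, 6 rose and 1 fell. The zinc and iron importer Slc39a14 was at 10.34, 10.76 and 11.23 in SKPs and 9.41, 9.09, 8.40 and 8.90 in MSCs (1.88 ± 0.17, adjusted p = 7.99e-06), and the zinc importer Slc39a6 rose by 1.24 ± 0.15. Of 18 complement components and regulators, 8 rose and 1 fell (median 1.07). Clusterin (Clu), a secreted chaperone that also blocks the membrane attack complex, was at 8.66, 10.42 and 11.08 in SKPs and 8.54, 8.11, 5.17 and 4.31 in MSCs (3.83 ± 0.73, adjusted p = 0.0023). With the leukocyte mean as a covariate, 5 complement genes rose and the median of the complement components and regulators was -0.03. Of 26 genes of prostaglandin synthesis and receptors, 9 rose and 3 fell, and 2 rose with that covariate. They included the synthase Ptges (1.79) and the prostaglandin-degrading enzyme Hpgd (2.35). Against MSC arrays 1 and 2 alone 5 complement and 4 prostaglandin genes rose, and against MSC arrays 3 and 4 alone 4 complement genes did. The part of leukocyte RNA in the calls of both lists was not tested beyond that covariate.

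Extracellular proteolysis and matrix genes showed opposed changes within families. Serpine2 and Serpini1, inhibitors of plasminogen activators, were higher. Serpine2 was at 11.42, 11.58 and 12.90 against 10.34, 10.57, 8.32 and 9.05 (2.36 ± 0.34), and Serpini1 rose by 2.95 ± 0.33. The thrombin receptor F2r fell by 1.76 ± 0.38, with dorsal array 3 (5.06) far below the other SKP arrays (6.98 to 8.63), and did not pass against MSC arrays 1 and 2 alone (adjusted p = 0.1063). Over plasminogen activation 5 of 17 rose and 6 fell, and 3 rose without MSC array 2, MSC array 3, facial array 2 or ventral array 3, or against MSC arrays 1 and 2 alone.

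The heparan sulfate endosulfatases, which strip sulfate groups from growth factor co-receptors outside the cell, split. Sulf2 was at 8.23, 9.14 and 9.83 in SKPs and 7.08, 7.13, 6.76 and 5.54 in MSCs (2.61 ± 0.31, adjusted p = 7.68e-05). Sulf1 was lower than in MSCs (9.19, 9.76, 10.22 and 9.70) in every SKP array, with dorsal values of 9.0, 8.80 and 8.08, facial values of 6.54, 6.21 and 6.52 and ventral values of 8.30, 8.30 and 7.88. Its fall of 3.30 in facial SKPs compared with 1.09 in dorsal SKPs, and the regions differed (adjusted p = 0.0013). Xylt1, which starts the sugar chain, rose by 2.68 ± 0.34. In all, 6 of 20 genes of heparan sulfate synthesis and editing rose and 3 fell.

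The microfibril protein Mfap2 rose by 3.63 ± 0.40, from 3.72 to 4.51 in MSCs to 4.96 to 7.53 in dorsal and facial SKPs and to 9.53 to 10.14 in ventral SKPs (adjusted p = 0.0071 for the regions). Fibulin 1 (Fbln1) rose by 1.86 ± 0.42, but not against MSC arrays 1 and 2 alone (adjusted p = 0.0735) or with the leukocyte mean as a covariate (0.1294). Elastic fibre and microfibril genes were 5 higher and 6 lower of 21, basement membrane genes 3 and 5 of 16, and genes of hyaluronan synthesis, binding and breakdown 2 and 4 of 13, the last falling to 2 lower without MSC array 3 or against MSC arrays 3 and 4 alone. With the latter pair as controls 8 basement membrane genes were lower, and with MSC arrays 1 and 2 as controls 3 elastic fibre and microfibril genes were higher. The laminin chain Lamc3 rose by 2.08 ± 0.35 and the matrix protein Smoc2 fell by 2.07 ± 0.38. Hmmr, a hyaluronan receptor that also acts at the mitotic spindle, fell by 2.19 ± 0.30. Connexins, pannexins and tight junction genes were 3 higher and 3 lower of 25, a share close to that of all genes, and the connexin gene Gja5 fell by 1.65 ± 0.14.

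Genes for copying and repairing DNA were lower in SKPs. Of 41 DNA replication genes, 31 fell and 1 rose (median -0.83), of 33 DNA repair genes 18 fell and 1 rose (-0.38), and of 28 nucleotide synthesis genes 16 fell and 0 rose (-0.44), where 1 was higher at an unadjusted p under 0.05 in limma. The mean of the replication list was 6.89, 6.56 and 6.08 on the dorsal, 6.52, 6.36 and 6.46 on the facial and 6.28, 6.22 and 6.15 on the ventral arrays, against 7.16, 7.51, 6.82 and 7.29 in MSCs. MSC array 3 (6.82) lay below dorsal array 1 (6.89), so the ranges overlapped. Against MSC arrays 3 and 4 alone 17 replication, 11 repair and 5 nucleotide synthesis genes fell, beside 9.91% of all genes lower in that fit. Cdc6, which loads the replicative helicase, was at 4.82, 5.97 and 6.87 in SKPs and 7.58, 8.09, 7.19 and 7.76 in MSCs (-1.78 ± 0.30, adjusted p = 0.000978). Its partners Cdc45, Gins1 and the polymerase subunit Pole fell by 1.36, 1.51 and 1.52.

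Among repair genes, Bard1, the partner of Brca1, fell by 2.47 ± 0.35 (3.98, 5.55 and 6.35 against 7.66, 8.22, 7.41 and 8.13), Fancd2 by 2.11 ± 0.33, Brca1 by 1.45 ± 0.20 and the recombination factor Rad54l by 1.28 ± 0.23. The ribonucleotide reductase subunit Rrm1 fell by 1.12 ± 0.24, and its probe set with the lowest mean did not pass (adjusted p = 0.1459). Tubulins and microtubule-associated proteins were 13 lower and 2 higher of 29, and 8 fell against MSC arrays 3 and 4 alone. Those that fell included Stmn1 (-1.56) and Tuba1c (-1.07), while the neuronal microtubule protein Dclk1 rose by 1.38. Of 22 intermediate filament genes 3 fell and 0 rose (6 and 0 at an unadjusted p under 0.05), and the share lower (13.6%) was close to that of all genes. Those that fell included the nuclear lamin Lmnb1 (-2.07 ± 0.22) and Sync (-2.23 ± 0.23).

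Of 44 cyclic nucleotide enzymes and RGS proteins, 6 rose and 3 fell. The share higher (13.6%) was close to that of all genes and the share lower (6.82%) was below it. Rgs2, which shuts off Gq-coupled receptors, was at 7.89, 9.19 and 10.31 in SKPs and 4.74, 4.45, 5.45 and 4.65 in MSCs, 19.3-fold higher (4.27 ± 0.25, adjusted p = 4.86e-07). The adenylyl cyclase Adcy2 rose by 2.23 ± 0.25, and the phosphodiesterase Pde4b fell by 1.64 ± 0.25. The cGMP-dependent kinase Prkg1 was at 3.65 to 5.59 in SKPs and 6.31, 6.84, 9.19 and 8.91 in MSCs (-3.21 ± 0.46). Of 41 calcium channels, pumps and binding proteins, 8 rose and 7 fell. The calcium release channel Itpr1 was at 6.31, 6.66 and 6.86 in SKPs and 8.94, 8.98, 10.23 and 10.47 in MSCs (-3.01 ± 0.26, adjusted p = 7.52e-06), and the exchanger Slc8a1 fell by 2.65 ± 0.31.

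Annexins and S100 proteins were 4 higher and 5 lower of 22. Anxa8 was at 4.41 to 4.84 in facial and 5.51 to 7.01 in dorsal and ventral SKPs against 9.91, 9.44, 7.80 and 8.80 in MSCs (-3.16 ± 0.33), and the regions differed (adjusted p = 0.0348). Sphingolipid and ganglioside enzymes were 5 higher and 3 lower of 28, and Sgms2, which makes sphingomyelin at the plasma membrane, fell by 2.54 ± 0.30. Fatty acid oxidation and peroxisome genes were 5 higher and 1 lower of 34, and the share higher (14.7%) was close to that of all genes. The 5 became 1 with the leukocyte mean as a covariate and 2 against MSC arrays 3 and 4 alone. Primary cilium genes were 6 higher and 8 lower of 34 with a median of -0.01. In the list of primary cilium genes 3 rose without MSC array 1 or ventral array 1, 2 rose without MSC array 3, and 5 fell without MSC array 2 or MSC array 4. Against MSC arrays 1 and 2 alone 2 rose and 2 fell, and against MSC arrays 3 and 4 alone 4 fell.

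Promoters of the genes that rose in all regions held the letters TGANTCA, searched for AP-1 with N as any base, more often than those of all genes. They stood in 13.4% of 238 promoters of genes higher in all regions, in 5.59% of 286 promoters of genes lower in all regions and in 6.24% of all 11970. The middle base was free, so matches include TGATTCA, as in Mgst1 below, and the shares do not count AP-1 sites. These stretches are shown for genes described above, with the letters in capitals: Mmp12 (chr8:12866550-12866586, plus strand), Lrrc15 (chr11:83974644-83974680, plus strand), Cyp26b1 (chr4:118616301-118616337, minus strand) and Mgst1 (chr4:172760775-172760811, plus strand).
Mmp12: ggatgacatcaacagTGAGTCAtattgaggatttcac
Lrrc15: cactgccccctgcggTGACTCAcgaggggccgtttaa
Cyp26b1: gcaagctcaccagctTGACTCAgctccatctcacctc
Mgst1: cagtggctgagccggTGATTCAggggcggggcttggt
The letters CCAAT stood in 55.6% of 36 promoters of DNA replication genes and in 95% of 20 promoters of endoplasmic reticulum chaperones, whose members did not pass, against 38.3% of all. The CArG box, bound by serum response factor, stood in 0.84% of promoters of the genes higher in all regions and 1.4% of those lower, against 1.28% of all. None of these shares was tested.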

How the data were processed

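RNA of 13 cultures, extracted with Trizol and RNeasy columns per the labels' protocols, was hybridised to Affymetrix Rat Gene 1.0 ST arrays. The authors computed the log2 levels in the deposited table with RMA in Affymetrix Expression Console, per the submitters' processing notes, which also name limma. No software version was given with them. RMA equalises the distributions of arrays, so differences are relative to the other genes of an array, and low signals compress fold changes. Array medians lay between 4.91 and 5.01, and precision is limited by how many arrays there are.

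Of 29215 probe sets, 15310 carried exactly 1 gene symbol, 323 carried several and 13582 none, and only the first kind was used. Symbols were updated by Entrez identifier for 15279 and by accession for 6. Of several probe sets of a gene, the one with the highest mean was taken, which left 14506 genes. Means of 4 groups were fitted to all 13 arrays (limma 3.58.1, R 4.3.3), the contrast was the mean of the 3 regions minus MSCs, and p-values (two-sided) were adjusted over all genes by Benjamini-Hochberg. Regions were compared by a moderated F test. Errors of differences are standard errors of the fit. P-values rest on the spread between isolates, which are independent according to the labels. The fit was tested on simulated data.

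The members and lists were chosen with earlier results of these data known. Named genes were the 20 in each direction with the largest smallest-region difference among shared genes, and up to 4 shared members of each function list, leaving out 82 genes that an earlier account had named. Other list members in the text were chosen after their values were seen. Replicate numbers of the labels did not pair the samples: of 18 same-numbered pairs, 1 had deviations correlated above 0.1 (-0.12 to 0.2). Promoters were taken from RefSeq (GRCr8), for 11970 measured genes. The alternatives were other variance models, array weights, scaling, probe sets and filters, arrays left out, either pair of MSC arrays, a leukocyte covariate, SKPs as 1 group of 9, a replicate block, and a test against a log2 fold of 1.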

Additional observations from a re-analysis of the deposited data

Results flagged for a closer look

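In MSCs, 5 named genes had 1 array far from the other 3, measured as the gap to the nearest array over the whole range and set against Dixon's limit for 4 arrays. Array 3 was low for Slc38a4 (0.877) and Nr1h3 (0.878). Array 4 was high for Gsta4 (0.901, below background) and low for Angpt1 (0.952) and Klf2 (0.831). Chance gives about 1 in 20 such gaps among groups of 4. The gaps were sought in 117 named genes and 37 function list means, 154 in all, so these 5 are not above that rate. All 5 calls remained without the array concerned.

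The SKP regions differed in 12 of the 117 named genes, by the adjusted p of limma's F test over the 3 regions. Of all 14506 genes, 1172 (8.08%) were called by that test, and the count of 12 was not tested against that share. The named genes were selected on the same region means. The p was 0.000577 for Cdkn2b and 0.0071 for Mfap2, both highest in ventral SKPs. It was 0.0013 for Sulf1 and 0.0348 for Anxa8, both lowest in facial SKPs, and 0.0264 for Gstm2, also lowest there. Facial SKPs were highest for Bmp7 (0.0169), Npas2 (0.0207) and Sgk1 (0.0369). Ventral SKPs were highest for Igfbp4 (0.0430). Amotl2 (0.0369) and Ccn2 (0.0351) were lowest in ventral SKPs, and Pck2 (0.0386) was lowest in facial SKPs.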

How the results depend on the processing

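Leaving out 1 array at a time gave 1515 to 2069 genes higher and 1449 to 1956 lower in SKPs, and 330 to 430 and 355 to 410 shared by all regions. The genes called different between regions (1172) ran from 445 to 1415 and dropped most without ventral array 1 (445), 3 (452) or 2 (574). With array weights there were 2494, with the leukocyte mean as a covariate 721. That covariate left 1209 genes higher and 1163 lower. Tested against a log2 fold of 1, 229 genes were higher (1.58%) and 174 lower (1.2%), and 208 and 164 were shared by all regions. In that test 2 lysosomal genes and 0 V-ATPase subunits were higher. Lower were 4 genes of the YAP and TEAD list, 2 ATF4 targets, 0 DNA replication, 1 DNA repair and 0 nucleotide synthesis genes. The fit with the replicate number as a block, in which MSC array 4 had a level of its own, called 675 genes between regions, and the numbers do not pair the samples. Over 27 alternatives to each named gene, 3114 of 3159 results kept direction and call, 45 lost the call (36 of them against a log2 fold of 1) and 0 reversed. Centring arrays on the median moved the share of higher calls from 51.6% to 46.1% of calls, and another quantile normalisation to 45.8%. Medians of the function lists moved by more than the spread between arrays in 35 of 999 cases, 11 of them with the leukocyte covariate and 18 with a single pair of MSC arrays as controls. Background limits the size of 30 shared rises (MSC mean at or below it) and 37 shared falls (mean at or below it in at least 1 SKP region).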

Other observations

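Genes of sterol export and of the sterol sensor LXR were higher in SKPs. The list was written after Apoe and Nr1h3 had been seen to rise, so its counts only describe these arrays. Of 18 measured LXR target and sterol export genes, 12 rose and 0 fell (median 1.22), against 13.1% of all genes higher, and with the leukocyte mean as a covariate 9 rose and 1 fell (median 0.62). The cholesterol exporter Abca1 was at 8.97, 9.50 and 10.65 (lowest, median and highest SKP array) and at 7.22, 7.36, 6.83 and 6.57 in MSCs (2.70). Its relative Abcg1 was at 7.43, 8.45 and 9.68 against 4.92, 4.63, 4.67 and 4.26 (3.64), and the lipid carrier Apod at 7.32 to 9.36 against 4.15 to 4.56 (3.97). The mean of the list was 7.21 to 8.20 on the SKP arrays and 5.96 to 6.21 on the MSC arrays, with dorsal array 3 lowest of the SKP arrays at 7.21.

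Lists of FOXO targets and of astrocyte genes were also written after values had been seen. Of 28 FOXO target genes, 15 rose and 2 fell (median 0.43), and 15 rose with the leukocyte covariate. The muscle ubiquitin ligase Fbxo32 was at 7.31, 7.95 and 9.81 in SKPs and 5.80, 5.82, 5.40 and 5.40 in MSCs (2.76), and Foxo3 itself rose by 1.35. Of 30 astrocyte and radial glia genes, 9 rose and 4 fell with a median of 0.03. Those that rose included the phosphatase Ptprz1 (6.33 to 9.75 in SKPs, and 3.46, 3.12, 2.88 and 2.62 in MSCs, below background) and Sparcl1 (4.49), while the gliogenic factors Nfia (-1.99) and Nfib (-1.29) fell.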
